A study of Mus musculus with 2 samples.

Results

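The miR-23/27/24 clusters are a pair of related miRNA loci, on chromosome 8 (Mir23a, Mir27a and Mir24-2) and on chromosome 13 (Mir23b, Mir27b and Mir24-1). The members were taken by gene symbol: the 6 rows of the count tables that belong to these loci, out of 1973 miRNA gene rows in each table. They were Mir23a, Mir27a, Mir24-2, Mir23b, Mir27b and Mir3074-1, and all 6 had counts in both libraries. Mir24-1 has no row, so its strand was read from the reads opposite Mir3074-1, a hairpin annotated on the other strand of the same bases.

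Each library came from the 2 adrenals of a B6NCrl mouse pup at postnatal day 0, and the 2 pups (pup 1, pup 2) shared 1 pregnancy and form 1 group, with no treatment, transgene or deletion in the labels. A donor identifier common to both samples stands beside descriptions of separate pups, and if it meant 1 animal, the spread reported here would be technical. RNA below 30 nucleotides was sequenced. Levels are CPM, each same-strand count scaled to a library sum of 1000000 over all gene rows. These sums came to 1131762 in pup 1 and 3327743 in pup 2. Errors marked SD are over the pups (n = 2), and intervals are exact 95% counting intervals of a single library. With 1 library per pup and 1 group, no p-value was computed.

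A miRNA is cut from a hairpin precursor and represses transcripts that pair with its seed, bases 2 to 8 of the mature strand. Each hairpin can give a 5p and a 3p mature strand, and neighbouring hairpins such as those of mir-23, mir-27 and mir-24 are usually cut from a shared primary transcript. Vertebrates carry this trio as paralogous clusters. The family is best known from blood vessels, where miR-23 and miR-27 influence angiogenesis, and from metabolism, where miR-23 represses mitochondrial glutaminase and miR-27 represses the adipocyte regulator PPAR-gamma. In adrenocortical cells, miR-24 is known as a repressor of the enzymes that make aldosterone and cortisol.

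The mature strands below, from RefSeq on GRCm38.p6, show why the clusters count as paralogues. All 6 members and Mir24-1 had a RefSeq hairpin. Capitals mark the seed.
miR-23a-3p: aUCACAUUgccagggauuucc
miR-27a-3p: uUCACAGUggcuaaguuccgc
miR-27b-3p: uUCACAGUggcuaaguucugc
miR-24-3p: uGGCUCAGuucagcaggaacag
miR-3074-5p: gUUCCUGCugaacugagccagu
miR-27a-3p and miR-27b-3p had the same seed, which no other mature strand in the RefSeq table shared. The table lists no miR-23b-3p, so the seed of miR-23a-3p was held by no other listed strand, although the Mir23b hairpin carries the same 7 bases in the stretch shown in the next paragraph. The seed of miR-24-3p was held by 4 others, miR-5124b, miR-6369, miR-6410 and miR-6413. miR-24-3p stood whole in 2 hairpins, Mir24-1 and Mir24-2, and miR-3074-5p in 2, Mir3074-1 and Mir3074-2. Of 1674 mature sequences in the table, 59 (3.52%) stood in more than 1 hairpin.

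The paralogous strands differed late, which bears on how reads can be assigned. In the next lines capitals mark each base that differs from the partner, compared position by position from the 5′ end. For Mir23b the line gives the stretch of its hairpin that aligned with miR-23a-3p (chr13:63300529-63300549, plus strand).
miR-23a-3p: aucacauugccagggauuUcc
Mir23b stretch: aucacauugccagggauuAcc
miR-27a-3p: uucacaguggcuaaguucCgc
miR-27b-3p: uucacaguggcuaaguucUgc
miR-24-1-5p: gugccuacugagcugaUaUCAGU
miR-24-2-5p: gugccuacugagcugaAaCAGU
The mir-23 sequences shown differed by U19A and the mir-27 3p strands by C19U, with position 1 at the 5′ end of the chromosome 8 copy. The 18 bases before position 19 were the same in both copies of each pair, and each 18-base stretch was found in 2 RefSeq hairpins. A read of these strands that ends before base 19 therefore matches both loci. The mir-27 5p strands, not shown, differed at 8 of 22 bases, the first at position 3. Gene rows do not tell reads of the 5p strand from those of the 3p strand. The mir-24 5p strands shared their first 16 bases, while the mir-24 3p strand was identical at both loci. Reads that map to several loci were kept out of the gene rows (34.9% of reads in pup 1 and 32.2% in pup 2), so the levels below hold for uniquely placed reads, and the share of each member among the multi-mapped reads was not analysed here.

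The clusters differ in layout. On mm10, Mir23a (ENSMUSG00000065611.1) lies at chr8:84208518-84208592, Mir27a (ENSMUSG00000065444.1) at chr8:84208672-84208758 and Mir24-2 (ENSMUSG00000065541.1) at chr8:84208815-84208921, all on the plus strand. Mir23a and Mir27a overlap no other annotated gene, and the end of Mir24-2 overlaps an exon of the long noncoding RNA Gm26532. The chromosome 13 cluster lies inside the protein-coding gene 2010111I01Rik, on its strand. There Mir23b (ENSMUSG00000065599.1) is in an intron at chr13:63300484-63300557. Mir27b (ENSMUSG00000065475.1) lies within an annotated exon at chr13:63300712-63300784, as does Mir24-1 at chr13:63301208-63301275. Mir3074-1 (ENSMUSG00000092741.1) is on the minus strand at chr13:63301199-63301283 and contains all 68 bases of Mir24-1. The whole region is also crossed by an intron of Fancc on the minus strand. The hairpins of chromosome 8 span 404 bases and those of chromosome 13 span 792 bases. On chromosome 13 the gap from mir-27 to mir-24 is 423 bases against 56 bases, and that from mir-23 to mir-27 is 154 bases against 79 bases.

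**Figure D1:**
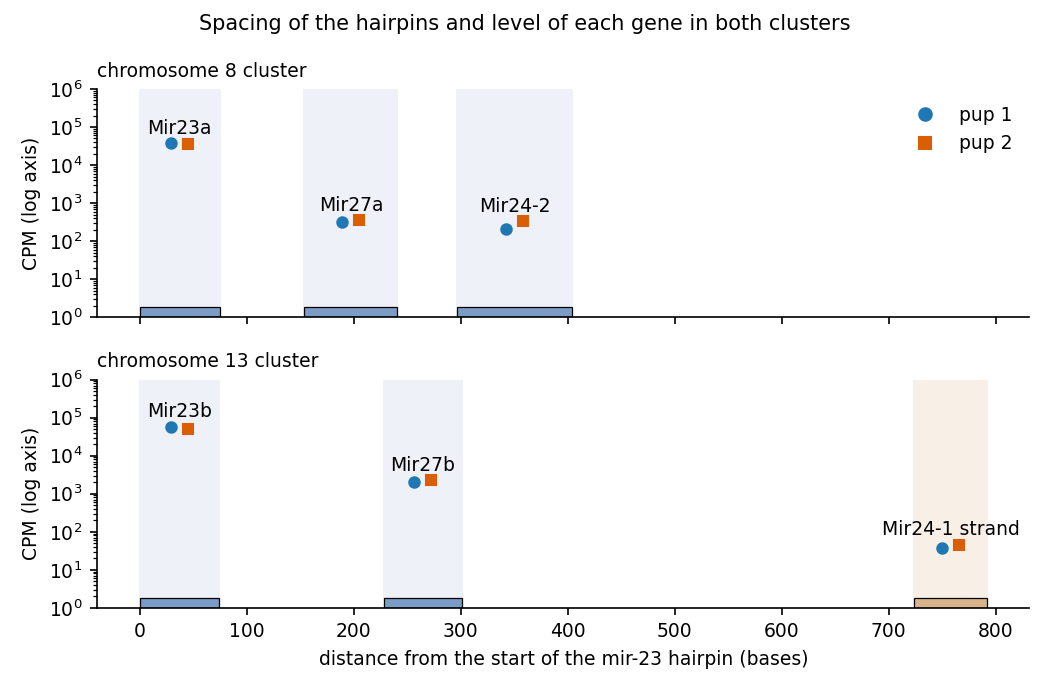
Hairpins of the chromosome 8 (top) and chromosome 13 (bottom) clusters as boxes along the distance from the start of the mir-23 hairpin in bases, with the CPM of pup 1 (circles) and pup 2 (squares) on a log axis; the level of the Mir24-1 strand comes from reads opposite Mir3074-1. In both clusters the mir-23 gene stands highest in uniquely placed reads, and the chromosome 13 hairpins extend over 792 bases against 404.

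Mir23b had the highest level of the members, with 58140 CPM in pup 1 and 51662 CPM in pup 2 (54901 ± 4581, SD, n = 2). It ranked 4 among all genes in both pups, below Mirlet7g and above Mirlet7i in each. Mir23a followed with 37455 CPM in pup 1 and 36584 CPM in pup 2 (37019.6 ± 616, SD, n = 2), at rank 8 and rank 7. The ranges of these mir-23 genes did not overlap, and each moved by less between the pups than the gap between them. Together the mir-23 genes held 9.56% of all same-strand counts in pup 1, with an interval from 9.51 to 9.61, and 8.82% in pup 2, from 8.79 to 8.86.

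Mir27b, the mir-27 gene of chromosome 13, had 2057 CPM in pup 1 and 2234 CPM in pup 2 (2146 ± 125, SD, n = 2), at rank 56 and rank 51. Mir27a had 310.1 CPM in pup 1 and 352 CPM in pup 2 (331 ± 29.7, SD, n = 2), at rank 128 and rank 129. Thus the mir-27 genes, whose 3p strands share a seed and differ at 1 base, had ranges that did not overlap. The chromosome 13 copy was above in both pups.

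Mir24-2 had 215 CPM in pup 1 and 329.95 CPM in pup 2 (272 ± 81.5, SD, n = 2), on 243 and 1098 counts. It was below Mir27a within each library, but the ranges of both genes over the pups overlapped. The Mir24-1 strand had 37.1 CPM in pup 1 and 44.5 CPM in pup 2 (40.8 ± 5.21, SD, n = 2), on 42 and 148 counts. Mir3074-1 had 34.5 CPM in pup 1 and 37.6 CPM in pup 2 (36.0 ± 2.19, SD, n = 2), on 39 and 125 counts. These lowest values overlapped each other and lay below every other member in both pups. A read of miR-24-3p alone matches both mir-24 hairpins, so the counts of Mir24-2 and of the Mir24-1 strand are not the level of miR-24-3p. Likewise, miR-3074-5p stands whole in Mir3074-1 and Mir3074-2, so the count of Mir3074-1 is not its level.

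**Figure D2:**
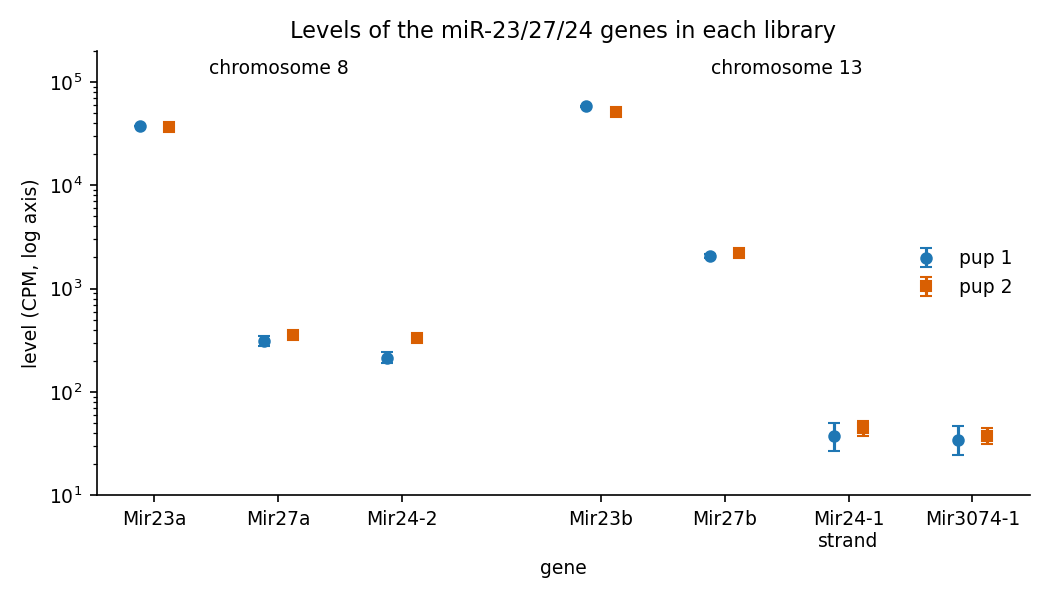
Level of each gene in CPM on a log axis, for pup 1 (circles) and pup 2 (squares), with exact 95% Poisson intervals that cover counting error only. The mir-23 genes lie between 36584 and 58140 CPM, the mir-27 genes between 310.1 and 2234 CPM, and the Mir24-1 strand and Mir3074-1 below 50 CPM.

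The 6 members held 9.82% of all same-strand counts in pup 1 and 9.12% in pup 2, of which the mir-23 genes gave 97.3% and 96.8%. By comparison, the endothelial Mir126a, the most abundant gene of these glands, had 81621 CPM in pup 1 and 102288 CPM in the other. The members' sum of 98212 CPM was above it in pup 1 and that of 91201 CPM below it in pup 2. The median level of the 6 members was 1238 CPM, beside 275 CPM over the 284 genes that averaged 10 CPM or more. By closeness of log2(CPM + 1) over the 2 pups, the gene nearest in level was Mirlet7g for Mir23b, Mir10b for Mir23a, Mir342 for Mir27b, Mir186 for Mir27a, Mir376c for Mir24-2 and Gm23935 for Mir3074-1. With 2 libraries, this likeness describes the level and no pattern over conditions.

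The chromosome 13 cluster gave more counts than the chromosome 8 cluster in both pups. The sum of Mir23b and Mir27b was 1.59 times that of Mir23a and Mir27a in pup 1 (95% interval 1.57 to 1.61) and 1.46 times in pup 2 (1.45 to 1.47), a mean of 1.53 ± 0.0953 (SD, n = 2). As shares of all counts, these sums were 6.02% and 5.39% for chromosome 13 and 3.78% and 3.69% for chromosome 8. The excess was thus present in both pups and larger than their spread.

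The excess was unequal along the cluster. Mir23b was 1.55 times Mir23a in pup 1 (1.53 to 1.57) and 1.41 times in pup 2 (1.40 to 1.42). Mir27b was 6.63 times Mir27a in pup 1 (5.93 to 7.44) and 6.34 times in pup 2 (5.96 to 6.75). At the mir-24 position, the ratio of uniquely placed reads went the other way. The Mir24-1 strand was 0.173 times Mir24-2 in pup 1 (0.121 to 0.241) and 0.135 times in pup 2 (0.113 to 0.160). The mean ratios of chromosome 13 over chromosome 8 were therefore 1.48 ± 0.0991 for mir-23, 6.49 ± 0.204 for mir-27 and 0.154 ± 0.0269 for mir-24 (SD, n = 2), and none of the 3 ranges overlapped another. Each ratio is taken within a library, so it does not depend on the scaling between pups. The mir-24 ratio is not a like measure to the others. Reads of miR-24-3p alone match both loci and are left out of it, and the Mir24-1 strand was read opposite Mir3074-1. Whether the output of miR-24-3p differs between the clusters was not tested.

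Among 12 other pairs of miRNA genes that carry paralogous names and lie on different chromosomes, the median difference was 8.73-fold (geometric mean of both pups, prior of 1 CPM). It ran from 1.90-fold to 37.0-fold in the 10 pairs whose lower gene had more than 3 counts in each library, and in the other 2 (Mir18 with Mir18b and Mir146 with Mir146b) its size depends on the prior. All 12 pairs kept their order in both pups, as did the mir-23 and mir-27 pairs. On the same scale the mir-23 pair differed by 1.48-fold, less than each of the 12, the closest being Mir99a and Mir99b at 1.90-fold and Mir10a and Mir10b at 2.16-fold. The mir-27 pair differed by 6.47-fold, more than 5 of the 12 and less than 7. These pairs were listed by name with no regard to how far their sequences differ, and they describe these libraries only. The list is not complete. Outside it, Mirlet7g and Mirlet7i lay closer, with 59600 and 50181 CPM in pup 1 and 54740 and 45993 CPM in pup 2. Mir7-1 and Mir7-2, also outside it, changed order, with 307 and 315 CPM in pup 1 and 438 and 265 CPM in pup 2.

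Within each cluster, the mir-23 gene held nearly all uniquely placed counts. Reads of miR-24-3p alone match both clusters and are missing from these totals, so the share of mir-24 in the output was not measured. On chromosome 8, Mir23a made up 98.6% of the cluster's counts in pup 1 and 98.2% in pup 2, with Mir27a at 0.817% and 0.945% and Mir24-2 at 0.565% and 0.885%. On chromosome 13, Mir23b made up 96.5% and 95.8%, with Mir27b at 3.41% and 4.14% and the Mir24-1 strand at 0.0616% and 0.0825%. Mir23a was 121 times Mir27a in pup 1 (109 to 135) and 104 times in pup 2 (98.1 to 110.1), although 79 bases separate these hairpins. Mir23b was 28.3 times Mir27b in pup 1 (27.1 to 29.5) and 23.1 times in pup 2 (22.6 to 23.7), across 154 bases. The step from mir-23 to mir-27 was thus steeper on chromosome 8 in both pups, with ranges that did not overlap.

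In uniquely placed reads, the steps from mir-27 to mir-24 also differed between the clusters. Mir27a was 1.44 times Mir24-2 in pup 1 (1.22 to 1.71) and 1.07 times in pup 2, where the interval from 0.982 to 1.16 includes equal counts. On chromosome 13, Mir27b was 55.4 times the Mir24-1 strand in pup 1 (40.9 to 77.1) and 50.2 times in pup 2 (42.7 to 59.5). In these counts the large step lay between mir-23 and mir-27 on chromosome 8, and both steps were large on chromosome 13. The step to mir-24 is not a like measure to the step from mir-23 to mir-27. Reads of the mature strand held whole by both mir-24 hairpins match both loci and are left out of the mir-24 counts. Whether the output of mir-24 lies below that of mir-27 in either cluster was therefore not tested.

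Unequal neighbours were common among the miRNA genes of these glands. Of 56 neighbouring pairs on 1 strand with a gap of at most 1000 bases and a mean of at least 10 CPM in each gene, 20 (35.7%) were at least 10-fold apart in the same direction in both pups. Of the 3 such pairs among the members, 2 passed 10-fold, Mir23a with Mir27a and Mir23b with Mir27b, and Mir27a with Mir24-2 did not. The median pair differed by 4.76-fold. By its geometric mean of 112-fold, Mir23a with Mir27a had the largest difference of the 56 pairs, followed by Mir19a with Mir20a at 82.4-fold. In pup 2 alone, Mir99a with Mirlet7c-1 was further apart, at 108-fold against 104-fold, so the first place rests on pup 1. Mir23b with Mir27b ranked 13 at 25.6-fold and Mir27a with Mir24-2 ranked 50 at 1.24-fold. Genes with a mean below 10 CPM were left out before pairing. A pair can therefore span such a gene, and steps into such genes are not counted. Pairs that share a gene are not independent, the levels leave out multi-mapped reads, and both limits (10-fold and the gap) were set with the values in view.

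**Figure D3:**
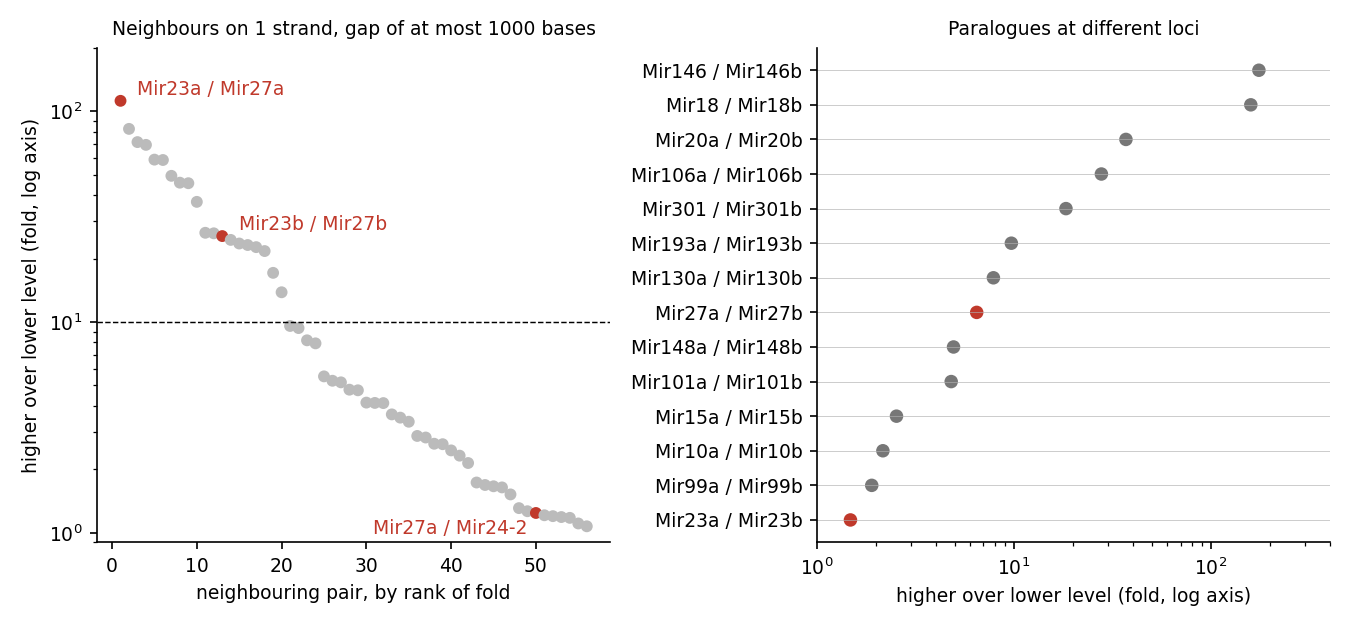
Left, the fold of the higher over the lower gene (log axis, geometric mean of both pups) for 56 neighbouring pairs by rank, with the 10-fold line dashed; right, the same fold with a prior of 1 CPM for 14 pairs of paralogues at different loci, of which the top 2 depend on the prior. Red marks the miR-23/27/24 genes. Mir23a with Mir27a leads the neighbours at 112-fold by the mean of both pups. Mir23a with Mir23b is the closest of the 14 listed pairs of paralogues at 1.48-fold.

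The levels of the members were also compared between the littermates. At least 2-fold differences between the pups were found in 0 of 6 members, beside 15 of 284 genes (5.28%) that averaged 10 CPM or more. With only 6 members, this count does not set them apart from all genes. The ratio of pup 2 to pup 1 was 0.977 for Mir23a (0.966 to 0.988), 0.889 for Mir23b (0.881 to 0.897), 1.14 for Mir27a (1.01 to 1.28) and 1.09 for Mir27b (1.04 to 1.14). For Mir3074-1 it was 1.09 (0.755 to 1.60) and for the Mir24-1 strand 1.20 (0.846 to 1.73), and both intervals include equal levels. The largest ratio of a member was that of Mir24-2, 1.54 (1.34 to 1.77), or 0.62 on the log2 scale with a prior of 1 CPM. It lay above the upper quartile of all 284 genes, which was 0.36.

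On that log2 scale the members had a median of 0.12, beside 0.08 over all 284 genes. Of the 6 members, 4 were higher in pup 2 and 2, both mir-23 genes, were lower, beside 165 of 284 genes (58.1%) higher. With edgeR's TMM scaling, which raises every log2 ratio by 0.11, Mir23a changed from -0.03 to 0.07 and Mir23b stayed lower at -0.06. Each pup is 1 library, so these differences have no replicate, and intervals cover counting error only.

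**Figure D4:**
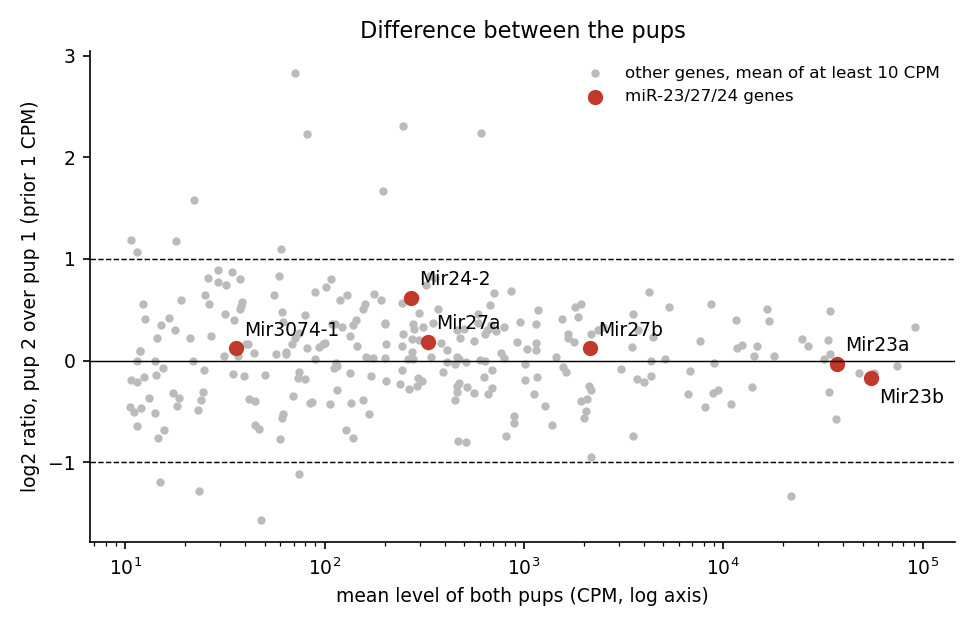
Log2 ratio of pup 2 over pup 1 (prior of 1 CPM) against the mean level of both pups in CPM (log axis), for the 284 genes that averaged 10 CPM or more (grey) and the 6 members (red), with dashed lines at 2-fold. All 6 members lie between the lines, from -0.17 for Mir23b to 0.62 for Mir24-2.

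miRNAs known from particular cell types are given beside the members for these whole glands, in which fewer cells of a type and less RNA per cell cannot be told apart. The summed level of 3 vascular miRNA genes (Mir126a, Mir221 and Mir222) stood at 102576 CPM in pup 2 beside 81867 CPM in pup 1, and that of 7 stromal and smooth muscle genes was 18329.8 CPM and 22857 CPM, with Mir145b at 0 counts in both. In pup 1 and pup 2, the hepatocyte Mir122 had 2979 CPM and 4081 CPM, and 4 neuroendocrine genes, mostly Mir375, summed to 39764.5 CPM and 33410.0 CPM. Within that list Mir375 and Mir7-2 were lower in pup 2, by log2 ratios of -0.31 and -0.25, and Mir7-1 and Mir7b higher, by 0.51 and 0.56. The 3 erythroid genes summed to 339 CPM and 337 CPM, with log2 ratios of 0.01 for Mir451a, 0.89 for Mir144 and -0.68 for Mir486. Of these 18 genes, 16 averaged 10 CPM or more, and 0 of them differed 2-fold between the pups. Beside these, the members had no common direction between the pups, with Mir23b lower and Mir27b higher in pup 2. The part of any cell type in the members' levels was not tested.

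The end of the chromosome 13 cluster was read from both strands. Mir24-1 and Mir3074-1 are shown whole because each lies opposite the other, with the mature strands listed by RefSeq in capitals.
Mir24-1 hairpin: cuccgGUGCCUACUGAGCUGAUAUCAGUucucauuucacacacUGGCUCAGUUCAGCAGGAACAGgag
Mir3074-1 hairpin: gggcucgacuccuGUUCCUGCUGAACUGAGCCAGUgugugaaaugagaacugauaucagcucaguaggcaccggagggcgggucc
Over these bases, the strand of Mir24-1 gave 42 counts against 39 for that of Mir3074-1 in pup 1, or 51.9% (95% interval 40.5 to 63.1). In pup 2 it gave 148 against 125, or 54.2% (48.1 to 60.2). Both intervals include equal counts, so a difference between the strands was not detectable at this depth.

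The other 5 members had no read on the opposite strand in either pup. For Mir24-2 this covers Mir3074-2, annotated opposite it at chr8:84208825-84208907 and without a row of its own. By a one-sided limit of 3 counts, the 0 counts allow 2.65 CPM for pup 1 and 0.902 CPM for pup 2, and the exact intervals used for the other levels reach 3.26 CPM and 1.11 CPM. Both hold for uniquely placed reads only. They do not cover miR-3074-5p, which Mir3074-1 and Mir3074-2 both hold whole, so that its reads match both loci. Uniquely placed reads were thus found from both strands at the mir-24 hairpin of chromosome 13, and from 1 strand at that of chromosome 8. Whether miR-3074-5p is made from chromosome 8 was not tested.

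In uniquely placed reads, balanced strands were rare among the miRNA rows. Of 305 genes with at least 10 counts over both strands in each library, 11 (3.61%) had more opposite-strand than same-strand counts in both pups, among them 1 of 6 members, Mir3074-1. All 11 lie opposite another annotated miRNA gene that has no row of its own. This does not set them apart, since it also holds for Mir126a, opposite Mir126b, and Mir337, opposite Mir3544. In the 10 of these 11 other than Mir3074-1, the opposite strand held at least 99.87% of the counts in pup 2 and 100% in pup 1, with at most 6 same-strand counts. The highest opposite-strand levels belonged to Gm25927, opposite Mirlet7e (12269 CPM and 7034 CPM), Gm24321, opposite Mir409 (8394 CPM and 9117 CPM), and Gm24083, opposite Mir191 (4321 CPM and 3877 CPM), none with a same-strand count. Besides Mir3074-1, Mir337 alone had at least 30 counts on each strand in both pups, and there the opposite strand held 56 counts beside 2691 in pup 1 and 123 beside 6457 in pup 2. That limit of 30 counts was set after the values were seen.

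**Figure D5:**
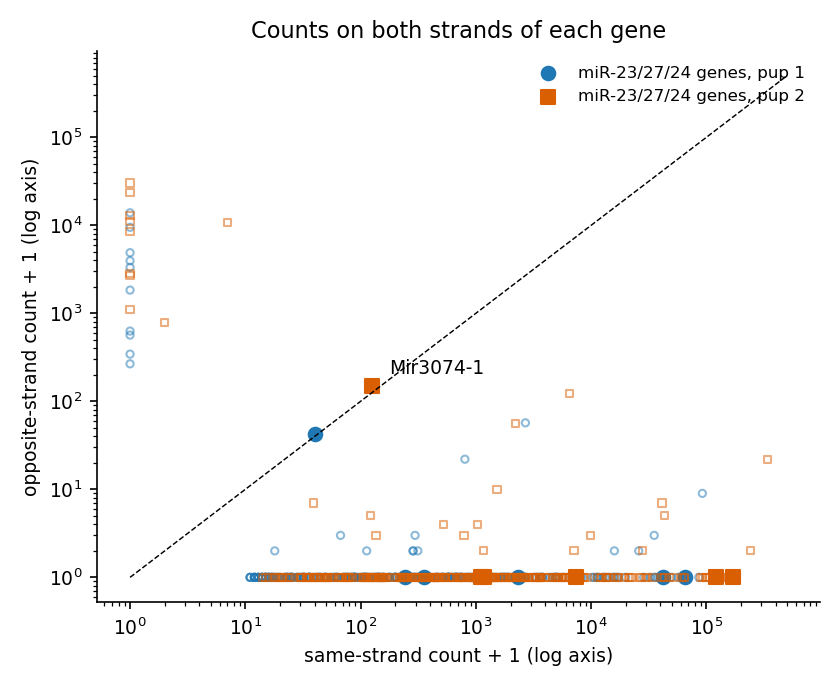
Opposite-strand against same-strand count of each gene (both plus 1, log axes) for pup 1 (circles) and pup 2 (squares); filled symbols are the miR-23/27/24 genes, open symbols the other genes with at least 10 counts in each library, and the dashed line marks equal counts. Mir3074-1 lies by the line with 39 and 42 counts in pup 1 and 125 and 148 in pup 2, while the other 5 members lie at 0 opposite-strand counts.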

How the data were processed

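The deposited values are unscaled counts of reads for each miRNA gene, 1 table per library, with columns for both strands, the same strand and the opposite strand. Per the deposited sample notes, the build was mm10 and the annotation GENCODE M4. No aligner or trimming step is named in the sources used here. Of the reads, 47.9% in pup 1 and 45.6% in pup 2 stood in 4 rows that name no gene (unmapped, multi-mapped, outside genes, ambiguous) and were left out of library sizes. CPM was computed here over same-strand gene counts, also for the opposite strand. Symbols and positions came from GENCODE M21, in which 3 members carry another identifier version, so hairpin ends may differ from those counted. A mature strand is read end to end, so counts were not divided by hairpin length.

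The members and lists were chosen with earlier results of these data known. The rule named the members, their opposite-strand partners, the gene nearest each in level, the 3 highest opposite-strand genes and the fixed lists. Ratios have exact conditional intervals, shares Clopper-Pearson intervals and levels exact Poisson intervals. The pup comparison used a prior of 1 CPM. edgeR 4.0.16 and DESeq2 1.42.0 gave alternative scalings only. Alternatives also covered the prior, the column, low counts, the denominator and each pup left out. Other computations used Python 3.11.15 and scipy 1.17.1.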

Additional observations from a re-analysis of the deposited data

How the results depend on the processing

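No paired analysis was possible because the libraries form a single group. Leaving out either pup only returns the ratio of the other, so it repeats the values of each pup and adds no independent check. The ranges were 1.41 to 1.55 for Mir23b over Mir23a, 6.34 to 6.63 for Mir27b over Mir27a and 1.46 to 1.59 for the sum of chromosome 13 over chromosome 8. They were 0.135 to 0.173 for the Mir24-1 strand over Mir24-2, 104 to 121 for Mir23a over Mir27a and 23.1 to 28.3 for Mir23b over Mir27b. Including the mir-24 genes in the sums gave 1.52, and the unstranded column, tried for the mir-23 ratio, the mir-27 ratio and the sum, left them as they were, since these genes had 0 opposite-strand counts. Per base of hairpin, an alternative added after the data were seen, Mir27b over Mir27a was 7.73 and Mir23a over Mir27a 130.3, through the hairpin lengths alone. No member passed 2-fold under any scaling, prior or count minimum tried. Over all genes 15 passed, with TMM and DESeq2 scaling also 15, with a prior of 5 CPM 11, and 85 with no minimum level. Of neighbouring pairs, 33 of 98 were at least 10-fold apart with gaps up to 10000 bases, and 11 of 35 with a mean of at least 100 CPM, both added after the data were seen. Over all reads in the tables, the level of each member was lower, 28267 CPM for Mir23b and 19081 CPM for Mir23a. Depth limits Mir3074-1 and the Mir24-1 strand, at 39 and 42 counts in pup 1.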
